A study of Rattus norvegicus with 9 samples.

Results

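miR-7 and miR-153 are brain microRNAs (miRNAs) that have been studied in Parkinson's disease. The small RNA libraries of rat striatum listed 6 mature miRNAs of these families, chosen by name as rno-miR-7a-5p, rno-miR-7b, rno-miR-7a-1-3p, rno-miR-7a-2-3p, rno-miR-153-3p and rno-miR-153-5p, and given below without the rat prefix. They were 6 of 764 miRNA entries and 6 of 1759 small RNA entries in all, and each of the 6 had counts in all 9 libraries and passed the low-count filter. Striatum, the brain region in which manganese does much of its harm, was taken from rats that were 8 weeks old at the start. Rats of the first treated group received the organic fuel additive methylcyclopentadienyl manganese tricarbonyl (MMT) at 4 mg/kg, about 1 mg of Mn per kg, dissolved in corn oil. A positive control group received MnCl2 as its tetrahydrate at 200 mg/kg in physiological saline, in a volume of 10 ml/kg. Both manganese compounds were given into the stomach. The control group received corn oil alone at 1 ml/kg, and dosing in all 3 groups ran once a day, 6 days a week, for 8 weeks. Each group held 3 rats of each sex and had 3 libraries. MMT and control shared the corn oil vehicle, whereas for MnCl2 the salt and the saline vehicle cannot be told apart. The labels do not give the sex of the rats behind a library or say whether tissue was pooled, so each error and p-value below reflects how far these libraries differed and may in part be technical.

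A miRNA is cut from a hairpin precursor, and usually the strand from 1 side, the guide, is kept by an Argonaute protein while the strand from the other side, the passenger, is degraded. The guide finds its mRNA targets mainly through its seed, bases 2 to 8 counted from the 5′ end. In mammals the guide of miR-7 comes from the 5p arm and that of miR-153 from the 3p arm. miR-7 is best known from neurons and neuroendocrine cells. The circular RNA Cdr1as binds it in large numbers, and the long noncoding RNA Cyrano triggers its decay.

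The 6 mature sequences are shown because their seeds set which of them can act on the same targets. They are RefSeq sequences (GRCr8 assembly), were identical to those in the deposited files for 6 of 6 entries, and have the seed in capitals.
rno-miR-7a-5p: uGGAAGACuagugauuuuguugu
rno-miR-7b: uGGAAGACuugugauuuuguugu
rno-miR-153-3p: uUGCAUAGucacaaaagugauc
rno-miR-153-5p: gUCAUUUUugugauguugcagcu
rno-miR-7a-1-3p: aCAACAAAucacagucugccau
rno-miR-7a-2-3p: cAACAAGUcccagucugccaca

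The miR-7a-5p and miR-7b guides carry the same seed, GGAAGAC, and no other miRNA entry in the files has it. Over their 23 bases they differ by the substitution A10U, counted from 1 at the 5′ end of miR-7a-5p, with the base of miR-7b second. Reads with a sequencing error at that base could be counted for the other entry, so the split between the pair is less certain than their sum. The guide of miR-153 has the seed UGCAUAG. Bases 2 to 7 of it recur in 1 other entry, miR-448-3p (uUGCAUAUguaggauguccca), which differs at the last seed base. The passenger miR-7a-1-3p shares its whole seed with miR-3065-5p and bases 2 to 7 with miR-196c-3p, while the seeds of miR-7a-2-3p and miR-153-5p were shared with no other entry. The guides are poor in G and C, at 34.8% for miR-7a-5p and miR-7b and 36.4% for miR-153-3p, against a median of 47.8% over the 764 miRNA entries.

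The hairpins show where each arm comes from, with annotated mature arms in capitals (RefSeq, GRCr8, plus strand).
rno-mir-7a-1: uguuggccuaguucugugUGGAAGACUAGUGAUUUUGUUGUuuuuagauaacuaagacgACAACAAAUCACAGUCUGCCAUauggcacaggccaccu
rno-mir-7a-2: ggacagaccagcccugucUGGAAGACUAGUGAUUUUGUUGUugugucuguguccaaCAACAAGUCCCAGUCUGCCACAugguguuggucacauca
rno-mir-7b: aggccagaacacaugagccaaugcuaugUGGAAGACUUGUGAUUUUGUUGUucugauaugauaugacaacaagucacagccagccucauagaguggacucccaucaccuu
rno-mir-153: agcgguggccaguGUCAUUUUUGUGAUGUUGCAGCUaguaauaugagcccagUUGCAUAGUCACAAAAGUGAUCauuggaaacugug

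The rno-mir-7a-1 hairpin lies at chr17:6278692-6278788, within the span of Hnrnpk, which encodes an RNA-binding protein. The rno-mir-7a-2 hairpin lies at chr1:142215800-142215894, within that of the noncoding RNA gene LOC120099863. The rno-mir-153 hairpin lies at chr6:144306594-144306680, within the spans of Ptprn2, which encodes a protein of neuroendocrine secretory vesicles, and of the noncoding RNA gene LOC120093227. The rno-mir-7b hairpin lies at chr9:1167436-1167545, within the span of the pseudogene Rpl35l3, and has 1 annotated arm. Both miR-7a hairpins give the identical miR-7a-5p, so its counts cannot be split between them, whereas their 3p arms differ and are counted apart.

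Total counts ran from 583045 to 2012769 per library, and neuronal miRNAs were abundant, with miR-124-3p at 2214 ± 249 CPM (counts scaled to a common library total by TMM, edgeR's normalization) in MMT, 2529 ± 147 in MnCl2 and 2138 ± 127 in control libraries (SD, n = 3 each). Summed over 6 neuronal markers, levels ran from 55830 to 73940 CPM in MMT, from 57500 to 71850 in MnCl2 and from 54150 to 74070 in control libraries. miR-375-3p, a marker of endocrine cells, in which miR-7 is also abundant, was scarce, at 7.11 to 21.3 CPM in MMT, 11.1 to 16.8 in MnCl2 and 0 to 10.8 in control libraries, with 0 counts in 1 control library. miR-449a-5p, a marker of multiciliated epithelia, was at 26.4 to 35.5 CPM in MMT, 11.5 to 66.4 in MnCl2 and 15.6 to 25.9 in control libraries. The sum over 2 choroid plexus markers ranged widely within each group. It ran from 219.8 to 1936 CPM in MMT, from 243.5 to 1172 in MnCl2 and from 356.1 to 1050 in control libraries. Most of it was miR-204-5p, at 1922 CPM in MMT 3 and 201 in MMT 2. miR-211-5p ran from 13.5 to 21.3 CPM in MMT, from 19.6 to 26.3 in MnCl2 and from 7.79 to 27.4 in control libraries. Among MMT libraries miR-211-5p was lowest in MMT 3. The part of these markers in the results below was not tested.

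miR-7a-5p was among the most abundant miRNAs of the striatum, at rank 7 of the 615 miRNAs that passed the filter. It averaged 24615 CPM over the 9 libraries and took 4.05% of all miRNA counts. The guide miR-153-3p came at rank 32 with 4401 CPM and miR-7b at rank 34 with 4004 CPM, and the levels of these neighbours overlapped across libraries. The passenger strands were scarcer, with miR-153-5p at rank 114 (465 CPM), miR-7a-1-3p at rank 207 (97.3 CPM) and miR-7a-2-3p at rank 350 (27.2 CPM), below the median miRNA at 36 CPM. Apart from miR-153-3p and miR-7b, each step of this order held without overlap across the 9 libraries. All 6 are 22 or 23 bases long, so read length hardly enters these comparisons, although ligation can favour some sequences. Together they made up 5.61% ± 0.73 of miRNA counts in MMT, 5.20% ± 0.56 in MnCl2 and 5.6% ± 0.22 in control libraries (SD, n = 3 each).

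**Figure D1:**
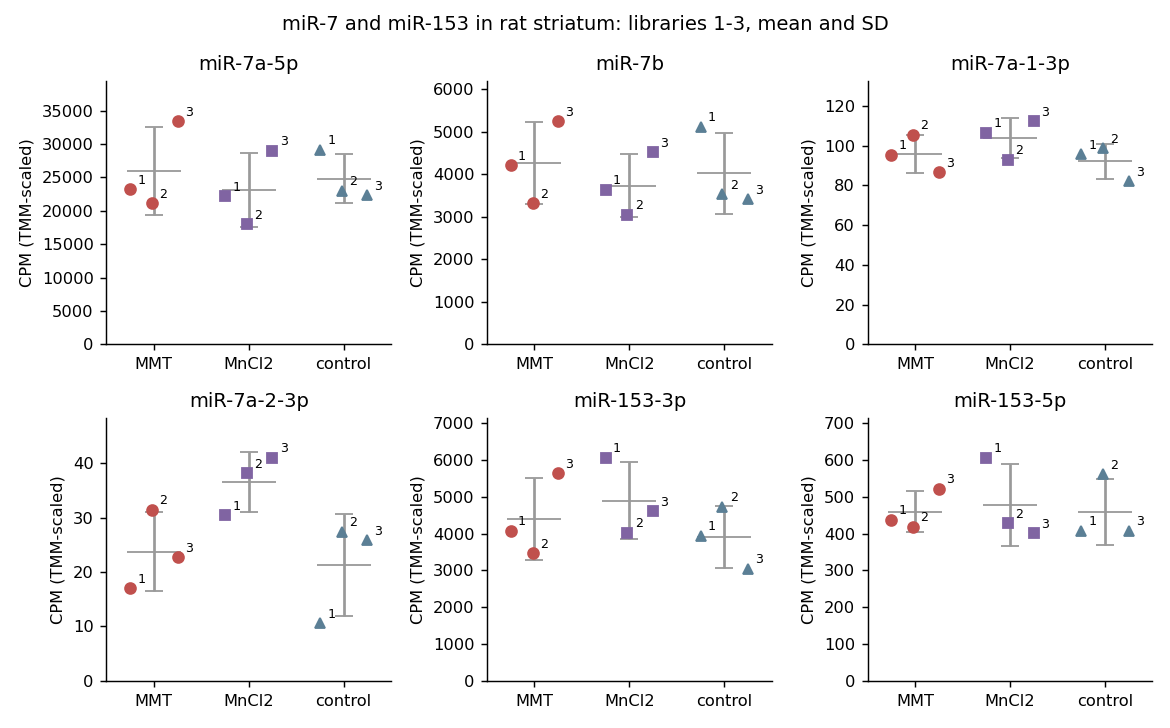
Level of each of the 6 miRNAs in CPM (scaled by TMM; linear axes from 0) in the MMT, MnCl2 and control libraries. Points are libraries with their replicate number and bars are the mean and SD (n = 3). The groups overlap in every panel except miR-7a-2-3p, where the MnCl2 libraries, at 30.4 to 40.9 CPM, lie above the control libraries, at 10.6 to 27.4 CPM.

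The main guide, miR-7a-5p, had overlapping levels in all 3 groups. The entry rno-miR-7a-5p stood at 23223, 21127 and 33439 CPM in MMT libraries 1 to 3, at 22192, 17995 and 29032 CPM in MnCl2 libraries, and at 29147, 23003 and 22378 CPM in control libraries. In each group 1 library had a CPM well above the rest (MMT 3, MnCl2 3 and control 1), and the ranges of all groups overlapped. As a share of miRNA counts control 1 did not stand out, at 4.10% beside 3.96% in control 2 and 4.46% in control 3. The log2 fold change was 0.06 for MMT against control (SE 0.24, edgeR adjusted p = 1) and -0.11 for MnCl2 against control (SE 0.24, edgeR adjusted p = 0.938). The 95% interval ran from 0.722-fold to 1.51-fold for MMT and from 0.643-fold to 1.34-fold for MnCl2, so changes of that size cannot be told from no change with these libraries. With miRNAs scaled on their own, the MnCl2 value was -0.39 (unadjusted p = 0.109, edgeR adjusted p = 0.974). MMT against MnCl2 gave a log2 fold change of 0.17 (SE 0.24, edgeR adjusted p = 0.981).

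rno-miR-7b, the near-identical guide from another chromosome, had 4216, 3322 and 5248 CPM in MMT libraries, 3632, 3047 and 4520 CPM in MnCl2 libraries, and 5117, 3528 and 3408 CPM in control libraries. By CPM, the same 3 libraries were highest as for miR-7a-5p. Its log2 fold change was 0.09 for MMT against control (SE 0.22), -0.11 for MnCl2 against control (SE 0.22) and 0.19 for MMT against MnCl2 (SE 0.22), with edgeR adjusted p-values of 1, 0.929 and 0.981. Its MnCl2 value with miRNAs scaled on their own was also -0.39 (unadjusted p = 0.115, edgeR adjusted p = 0.974). Of the counts with the miR-7 seed, miR-7b took a narrow share, from 13.2% to 15.4% over all 9 libraries. The share was 14.2% ± 1.03 in MMT, 14.0% ± 0.51 in MnCl2 and 13.8% ± 0.97 in control libraries (SD, n = 3 each). Exact two-sided permutation tests, which allow no p below 0.1 here, gave p = 0.5 for MMT against control, 0.8 for MnCl2 against control and 0.8 for MMT against MnCl2. Within a group, libraries differed by more than counting error, with 95% Wilson intervals of 15.0% to 15.8% in MMT 1 beside 13.3% to 13.9% in MMT 3, and of 14.7% to 15.2% in control 1 beside 12.9% to 13.7% in control 2.

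The passenger strands of miR-7a are counted apart for each hairpin. rno-miR-7a-1-3p, from the hairpin in Hnrnpk, was the steadiest of the 6, at 95.5, 105 and 86.7 CPM in MMT libraries, 106, 92.9 and 112 CPM in MnCl2 libraries, and 95.7, 98.8 and 82.1 CPM in control libraries. Its highest library held 1.37 times the level of its lowest, against 1.86 times for miR-7a-5p, and its groups overlapped. The log2 fold change was 0.05 for MMT (SE 0.17, edgeR adjusted p = 1) and 0.17 for MnCl2 (SE 0.17, edgeR adjusted p = 0.843), each against control.

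rno-miR-7a-2-3p, from the other miR-7a hairpin, was the only one of the 6 with a pair of groups that did not overlap, MnCl2 and control. It had 17.0, 31.4 and 22.7 CPM in MMT libraries (20, 25 and 32 counts), 30.4, 38.1 and 40.9 CPM in MnCl2 libraries (22, 39 and 39 counts), and 10.6, 27.4 and 25.9 CPM in control libraries (19, 28 and 17 counts). All 3 MnCl2 libraries lay above all 3 control libraries, as 53 of 1113 entries did (4.76%), and control 1, the deepest library, was far below the other two controls. The log2 fold change of MnCl2 against control was 0.81 (SE 0.44, unadjusted p = 0.0904, edgeR adjusted p = 0.843), with a 95% interval from 0.898-fold to 3.43-fold. Without control 1 it was 0.46 (unadjusted p = 0.273), and with miRNAs scaled on their own it was 0.55 (unadjusted p = 0.26). With total count as a covariate it was 0.73 (unadjusted p = 0.0414, edgeR adjusted p = 0.475). MMT gave 0.18 against control (SE 0.44, edgeR adjusted p = 1) and -0.63 against MnCl2 (SE 0.43, edgeR adjusted p = 0.981). In MnCl2 against control, 476 of 615 miRNAs (77.4%) had a positive log2 fold change, and the median over them was 0.23. Markers of other tissue moved with this strand in part. Summed over 4 miRNAs of the Hox clusters, which mark hindbrain, levels ran from 89.3 to 103 CPM in MnCl2 and from 16.7 to 100.4 in control libraries, with control 1 again the lowest. Of the 4, only miR-196a-5p separated the groups. miR-10a-5p was highest in control 3 (39.6 CPM), and the miR-10b-5p mean was lower in MnCl2 (3.08 against 3.43 CPM). Sums over 3 muscle markers ran from 98.2 to 210.3 CPM in MnCl2 and from 76.8 to 124.7 in control libraries. The highest was MnCl2 2, with miR-1-3p at 61.6 CPM, against 15.2 in MnCl2 1, 11.5 in MnCl2 3 and 5.56 to 9.78 in control libraries. miR-133a-3p, at 38.1 CPM in MnCl2 2, overlapped between the groups. So did miR-206-3p, the largest part of the sums, at 70.5 to 110.5 CPM in MnCl2 and 58.4 to 109.5 in control libraries. miR-375-3p was higher in every MnCl2 library than in any control library, but the closest were at 11.1 CPM (8 counts) and 10.8 CPM (11 counts). Its log2 fold change against control was 1.46 in MnCl2 and 1.35 in MMT, where miR-7a-2-3p gave 0.18. miR-449a-5p overlapped between MnCl2 and control. The part of these markers in the result was not tested.

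rno-miR-153-3p, the guide of miR-153, had 4079, 3471 and 5634 CPM in MMT libraries, 6058, 4029 and 4610 CPM in MnCl2 libraries, and 3948, 4727 and 3052 CPM in control libraries. Its mean was highest in MnCl2 and lowest in control, with overlapping ranges, and MnCl2 1 was its highest library. That library also stood apart in the sum over 3 vascular markers, at 27900 CPM, against at most 18270 in any other library. The sum was raised there by miR-143-3p (17934 CPM) and miR-145-5p (1329 CPM), against at most 9215 and 703 CPM in any other library. The vascular miR-126a-3p was also highest in MnCl2 1, at 8637 CPM, but close to control 1 at 8353. It ran from 5922 to 7678 CPM in the rest. Over 4 erythrocyte markers the sum in MnCl2 1 was 185.2 CPM, against at most 115.6 in any other library, although miR-486 had 0 counts in MnCl2 1. The part of these markers in the miR-153-3p level was not tested. The log2 fold change was 0.33 for MnCl2 against control (SE 0.23, unadjusted p = 0.185, edgeR adjusted p = 0.843), with a 95% interval from 0.882-fold to 1.78-fold. That value was 0.14 without MnCl2 1, 0.11 without control 3, and 0.04 with miRNAs scaled on their own. MMT gave 0.17 against control (SE 0.23, edgeR adjusted p = 1) and -0.16 against MnCl2 (SE 0.23, edgeR adjusted p = 0.981).

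The passenger rno-miR-153-5p was at 437, 418 and 522 CPM in MMT libraries, 606, 427 and 401 CPM in MnCl2 libraries, and 407, 561 and 408 CPM in control libraries. MnCl2 1 was again the highest, and the group means, at 459 ± 55.4, 478 ± 111 and 459 ± 88.4 CPM for MMT, MnCl2 and control (SD, n = 3 each), lay within the spread of any group. Its log2 fold changes were 0.00 for MMT against control (SE 0.19), 0.06 for MnCl2 against control (SE 0.19) and -0.05 for MMT against MnCl2 (SE 0.19), with edgeR adjusted p-values of 1, 0.969 and 0.986.

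**Figure D2:**
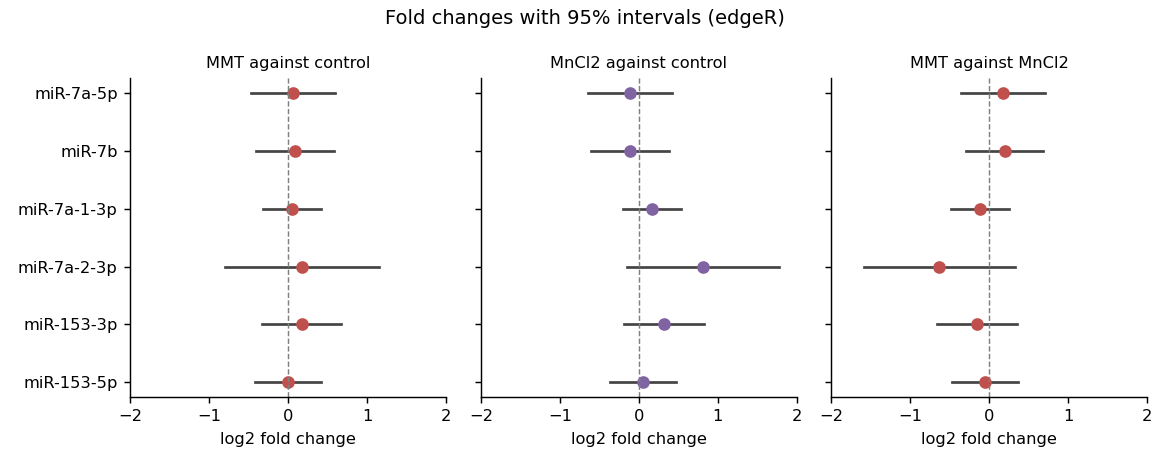
Log2 fold change (points; x axis) of each of the 6 miRNAs in the 3 comparisons, with 95% intervals (lines) from the edgeR quasi-likelihood fit over all 9 libraries; a positive value is higher in the group named first. All 18 intervals include 0, and the widest are those of miR-7a-2-3p.

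Counted together, 0 of the 6 miRNAs passed an edgeR adjusted p of 0.05 in any of the 3 comparisons, where 0 of 1113 entries did (0% in each). At an unadjusted p under 0.05 the count was also 0 of 6 in each, against 2.16% of entries for MMT against control, 4.58% for MnCl2 against control and 1.98% for MMT against MnCl2, and DESeq2 also called 0 of the 6 and 0 of all entries. Ranges did not overlap for 0 of 6 in MMT against control (4.58% of entries), 1 of 6 in MnCl2 against control (9.7%) and 0 of 6 in MMT against MnCl2 (9.07%). In MMT against control 6 of 6 log2 fold changes were positive, with a median of 0.07 beside 0.04 over all miRNAs, where 57.4% of miRNAs were positive. With miRNAs scaled on their own, 4 of these 6 signs turned, and the median over all miRNAs moved to -0.10. In MnCl2 against control 4 of 6 were positive, with a median of 0.11 beside 0.23 over all miRNAs, a median that the same scaling moved to -0.05 while it turned the signs of miR-7a-1-3p and miR-153-5p. In MMT against MnCl2 2 of 6 were positive, where 27.2% of miRNAs were, with a median of -0.09 beside -0.19. The comparisons with control share the control libraries, so their values are not independent. The biological coefficient of variation was 0.198 for miR-7a-5p, 0.2 for miR-7b and 0.204 for miR-153-3p, below the 0.279 common to all entries, and 0.359 for the scarce miR-7a-2-3p.

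The balance between the 2 arms of a hairpin does not depend on how libraries are scaled. The 3p arms made up 0.484% ± 0.159 of miR-7a counts in MMT, 0.620% ± 0.099 in MnCl2 and 0.463% ± 0.092 in control libraries (SD, n = 3 each). By library this share was 0.482%, 0.644% and 0.326% in MMT, 0.613%, 0.723% and 0.525% in MnCl2, and 0.363%, 0.546% and 0.480% in control. The lowest belonged to MMT 3 (95% Wilson interval 0.279% to 0.382%) and control 1 (0.315% to 0.419%), the deepest 2 libraries, and the ranges overlapped between all groups. Exact two-sided permutation tests gave p = 0.9 for MMT against control, 0.2 for MnCl2 against control and 0.3 for MMT against MnCl2.

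For miR-153 the passenger was kept at a higher share, 9.64% ± 1.14 of both arms in MMT, 8.89% ± 0.81 in MnCl2 and 10.6% ± 1.22 in control libraries (SD, n = 3 each). Single libraries ran from 8.48% to 10.8% in MMT, from 8.00% to 9.59% in MnCl2 and from 9.35% to 11.8% in control. The highest was control 3 (95% Wilson interval 10.5% to 13.2%) and the lowest MnCl2 3 (7.27% to 8.81%), with overlap between all groups. The exact two-sided permutation p was 0.5 for MMT against control, 0.2 for MnCl2 against control and 0.4 for MMT against MnCl2.

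Between the miR-7a hairpins, miR-7a-2-3p supplied 19.6% ± 4.02 of the 3p arm counts in MMT, 26.0% ± 3.49 in MnCl2 and 18.5% ± 7.52 in control libraries (SD, n = 3 each), a share chosen after its values were seen. The hairpin in Hnrnpk thus gave most of the counted passenger strands in all 9 libraries. Control 1 stood lowest, at 9.95% (95% Wilson interval 6.46% to 15.0%), and the exact two-sided permutation p was 0.9, 0.2 and 0.2 for MMT against control, MnCl2 against control and MMT against MnCl2. The 12 tests of shares had adjusted p-values from 0.6 to 0.9, in a design where 3 against 3 allows no exact p below 0.1. The intervals cover counting error only.

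**Figure D3:**
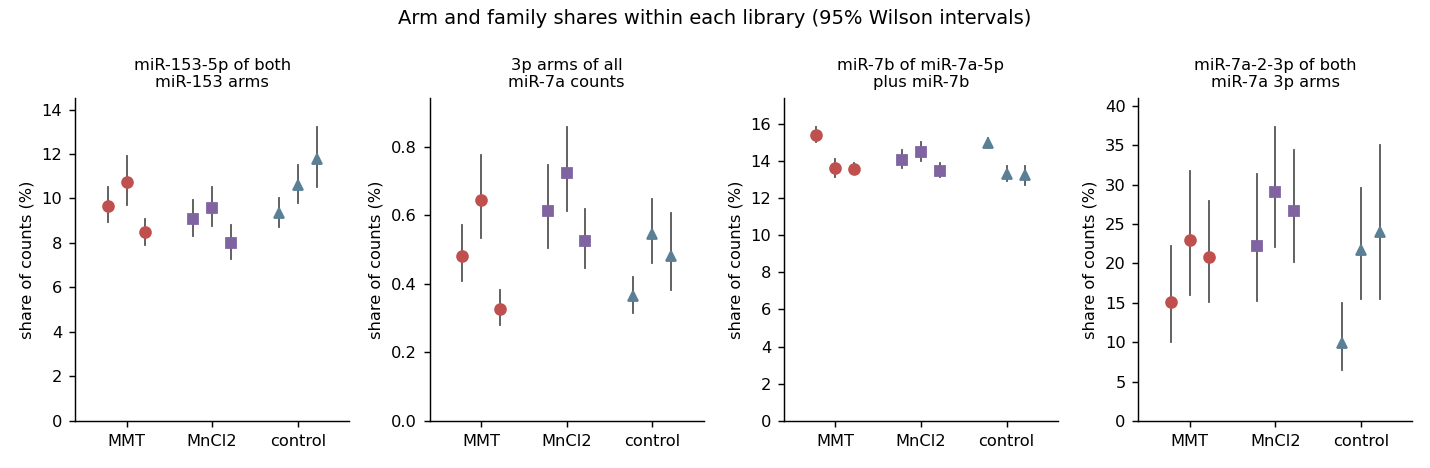
Shares of counts within each library, in percent, by group: miR-153-5p among both miR-153 arms, the 3p arms among all miR-7a counts, miR-7b among miR-7a-5p plus miR-7b, and miR-7a-2-3p among both miR-7a 3p arms. Points are libraries 1 to 3 from left to right and lines are 95% Wilson intervals; the groups overlap in every panel, and control 1 is low for miR-7a-2-3p at 9.95%.

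Across the 9 libraries the guides did not all follow the same pattern. The miRNA most like miR-7a-5p, among 199 others at a mean of at least 100 CPM, was miR-7b (Pearson r of log2 CPM 0.948). Next came miR-9a-3p (0.898), miR-9b-5p (0.887), miR-382-5p (0.85) and let-7f-5p (0.833), where the median miRNA had 0.505. miR-9a-3p and miR-9b-5p are complementary over 19 bases and had 26067 and 26295 counts. Whether strand entered the counting is not given, and if it did not, their reads cannot be told apart.

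The miRNA most like miR-153-3p was miR-29b-3p (r = 0.994), followed by miR-3587 (0.993), miR-136-5p (0.981), miR-301a-3p (0.979) and miR-495 (0.973), where the median was 0.517. miR-29b-3p and miR-3587 are complementary over 21 bases, with unequal counts of 364780 and 120167, and the same limit would hold for them. The 5 held 34.8% to 39.1% G and C, beside 36.4% in miR-153-3p, and the part of base composition in this likeness was not tested. miR-153-3p was less like its own passenger strand (r = 0.794) and little like miR-7a-5p (r = 0.378). These values describe 9 libraries that also share their depths, and no p is given for them.

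**Figure D4:**
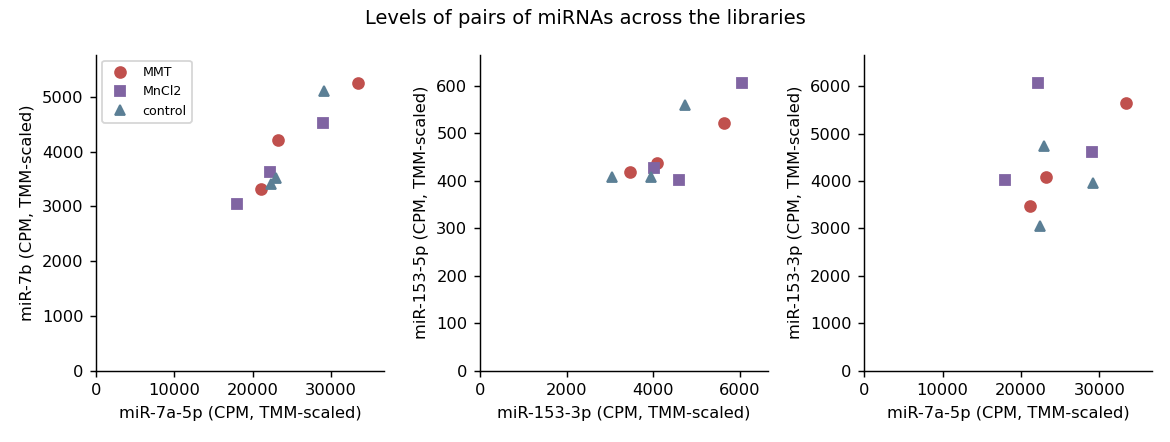
Levels in CPM (scaled by TMM, linear axes from 0) of miR-7b against miR-7a-5p, of miR-153-5p against miR-153-3p and of miR-153-3p against miR-7a-5p, 1 point per library and 1 symbol per group. The miR-7 guides lie close to a line (r = 0.948 on log2 values), while miR-153-3p is scattered against miR-7a-5p (r = 0.378), and the groups are interspersed.

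Levels were also set against the total count of each library, since totals differed between libraries of 1 group. For miR-7b, Pearson's r was 0.813 (exact permutation p = 0.00764, n = 9) and Spearman's rho was 0.767 (exact permutation p = 0.0214). For miR-7a-5p, r was 0.659 (exact permutation p = 0.0535, n = 9) and rho was 0.783 (exact permutation p = 0.0172). The scarce miR-7a-2-3p ran the other way, with r = -0.697 (exact permutation p = 0.0366, n = 9) and rho = -0.583 (exact permutation p = 0.108). None passed once the 12 relations of the 6 miRNAs were adjusted together, with adjusted exact permutation p-values of 0.0856 for both measures of miR-7b, 0.128 and 0.0856 for miR-7a-5p, and 0.11 and 0.216 for miR-7a-2-3p. Without control 1 and control 3, r was 0.772 for miR-7b, 0.674 for miR-7a-5p and -0.585 for miR-7a-2-3p (exact permutation p = 0.0413, 0.0933 and 0.161, n = 7). For miR-153-3p, r was 0.306 and rho 0.35, for miR-153-5p -0.03 and 0.03, and for miR-7a-1-3p -0.07 and -0.07 (exact permutation p from 0.359 to 0.948, n = 9). Without those 2 control libraries, r of miR-7a-1-3p was -0.72 (exact permutation p = 0.0649, n = 7), so its value over 9 libraries rests on them. These levels carry the TMM scaling, whose factor was 0.893 in control 1, the deepest library, and 1.129 in control 3, the shallowest. As a share of miRNA counts, miR-7a-5p was at 4.10% in control 1 and 4.46% in control 3, and highest in MMT 3 (4.76%). The part of scaling in these relations was not tested. The labels give no batch within which to repeat these relations.

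**Figure D5:**
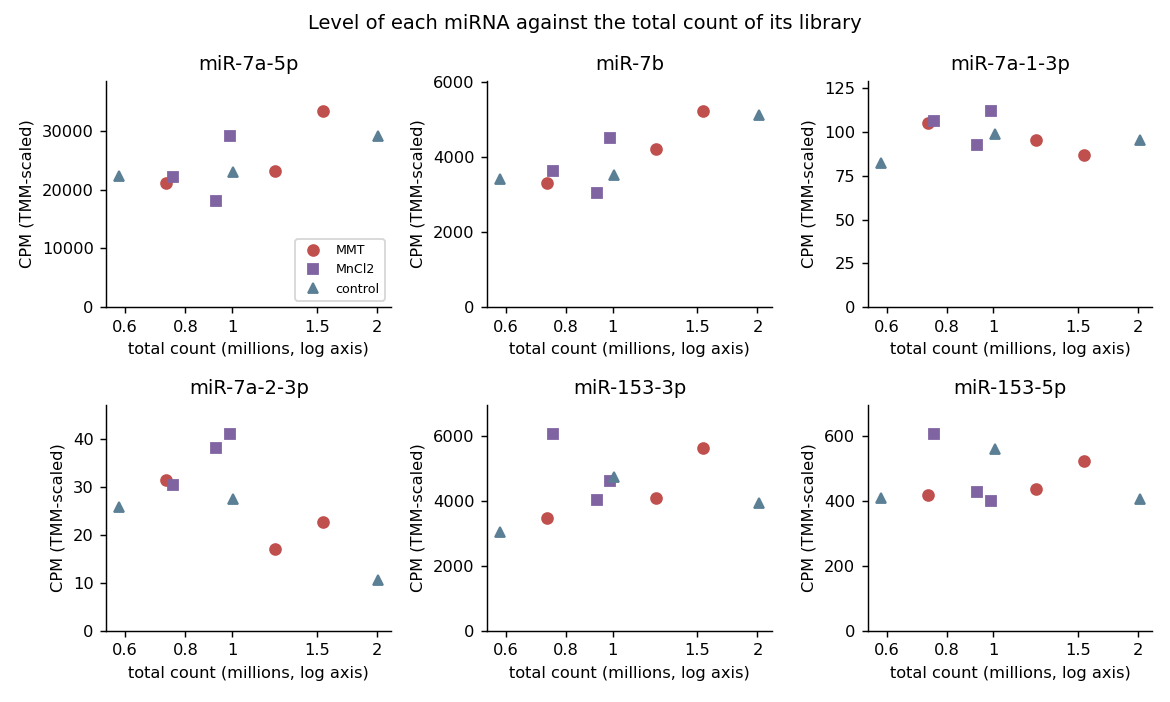
Level of each of the 6 miRNAs in CPM (scaled by TMM, linear axis from 0) against the total count of the library (log axis), 1 point per library. The points of miR-7b climb with the total count (r = 0.813), those of miR-7a-2-3p descend (r = -0.697), and those of miR-153-5p show no slope (r = -0.03).

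Entries that share a seed with the 6, and so could bind overlapping sites, stood at other levels. miR-448-3p, which shares 6 bases of the miR-153-3p seed, was at 283 ± 322 CPM in MMT, 184 ± 157 in MnCl2 and 228 ± 142 in control libraries (SD, n = 3 each), well under the 4395 ± 1115, 4899 ± 1045 and 3909 ± 838 CPM of miR-153-3p in the same groups. Its largest log2 fold change was 0.65 for MMT against MnCl2 (SE 1.04, edgeR adjusted p = 0.981). miR-3065-5p, which has the seed of miR-7a-1-3p, was at 3702 ± 344 CPM in MMT, 3856 ± 756 in MnCl2 and 3360 ± 780 in control libraries. It is complementary over 20 bases to miR-338-3p, and the pair had 35424 and 34931 counts. If strand did not enter the counting, which is not given, the level of miR-3065-5p cannot be told from that of miR-338-3p. miR-196c-3p was at 23.1 ± 17.8, 28.6 ± 6.55 and 26.8 ± 23.1 CPM in MMT, MnCl2 and control libraries (SD, n = 3 each).

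Other miRNAs linked to Parkinson's disease were read from a list of 15, of which 13 passed the filter. No member was called in either direction in any comparison, as for the 1113 entries, and the only one at an unadjusted p under 0.05 was miR-223-3p in MnCl2 against control. The myeloid miR-223-3p was at 124 ± 54.2 CPM in MnCl2 and 75.2 ± 10.3 in control libraries (SD, n = 3 each; log2 fold change 0.72, SE 0.29, unadjusted p = 0.0312, edgeR adjusted p = 0.843). Its MnCl2 libraries were at 187, 91.0 and 94.5 CPM and its control libraries at 64.0, 84.1 and 77.6 CPM, so MnCl2 1 carried most of the difference. The erythrocyte miR-144-3p was likewise highest in MnCl2 1, at 48.4, 19.6 and 24.1 CPM in MnCl2 libraries and 5.01, 13.7 and 12.2 CPM in control libraries (log2 fold change 1.60, SE 0.54, unadjusted p = 0.0131, edgeR adjusted p = 0.843). The erythrocyte markers miR-144-5p and miR-451-5p, also highest in MnCl2 1, gave smaller values of 0.43 and 0.13 (edgeR unadjusted p = 0.37 and 0.744). miR-486 went the other way, with 7 counts in MnCl2 and 13 in control libraries, and 0 in MnCl2 1. The part of these markers in the miR-223-3p result was not tested. For MMT against control 10 of 13 were positive with a median of 0.07, beside 0.04 over all miRNAs, and for MnCl2 against control 12 of 13 with a median of 0.24, beside 0.23. miR-34c-5p was at 235 ± 146 CPM in MMT, 230 ± 145 in MnCl2 and 219 ± 116 in control libraries, and miR-34b-5p at 51.4 ± 34.4, 70.5 ± 42.4 and 53.3 ± 34.7 CPM (SD, n = 3 each), so both varied more within groups than between them. miR-214-3p did not pass the filter, with 30, 28 and 17 counts in all in the MMT, MnCl2 and control groups. miR-671, which directs the cutting of Cdr1as, was at 26.0 ± 7.73 CPM in MMT, 36.5 ± 11.5 in MnCl2 and 27.6 ± 20.9 in control libraries (SD, n = 3 each), with log2 fold changes of -0.05 and 0.45 against control (SE 0.52 each, edgeR adjusted p = 1 and 0.843).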

How the data were processed

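Small RNAs of rat striatum were counted in 9 libraries, 3 per group, grouped by sample title. Per the labels' protocols, RNA of 15 to 45 nucleotides was cut from a gel before library preparation with a QIAseq miRNA kit. The submitters' processing notes name Trimmomatic for trimming and the build rn6. No source used here says which aligner was run, or whether strand or molecular identifiers entered the counting. The authors deposited raw counts per entry, not normalized, with 583045 to 2012769 per library.

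All 9 libraries entered 1 robust quasi-likelihood fit in edgeR 4.0.16 (R 4.3.3), scaled by TMM after filterByExpr. Its two-sided p-values were adjusted by Benjamini-Hochberg over the 1113 entries kept. SE is the fold change divided by the root of its F statistic. Shares were compared by exact permutation over 20 arrangements (Python 3.11.15, scipy 1.17.1). Pairing by replicate number was checked from deviations from group means. Alternatives included DESeq2 1.42.0. Sequences and host genes come from RefSeq (GRCr8). The 6 miRNAs, all named, and the lists were chosen with earlier results of these data known. Named neighbours in pattern are the 5 highest by Pearson's r.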

Additional observations from a re-analysis of the deposited data

How the results depend on the processing

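Over 18 member comparisons and 21 other settings, 0 values passed an adjusted p of 0.05, and the lowest adjusted p was 0.421. An unadjusted p under 0.05 came from 1 refit, miR-7a-2-3p in MnCl2 against control with total count as a covariate. Values near 0 changed sign in 44 of 375 refits. These include a filter of 10 CPM in 3 libraries, which kept the same 1113 entries and so could not differ from the main fit. A fit with miR-7a-5p and miR-7b summed is counted under both names. For MMT against control, log2 fold changes with miRNAs scaled alone were -0.08 (miR-7a-5p), -0.06 (miR-7b), -0.089 (miR-7a-1-3p) and -0.136 (miR-153-5p). miR-153-5p was also at -0.042 by total count scaling, -0.003 unfiltered, -0.03 in a fit of the compared groups and -0.005 with a filter of 50 CPM in 3 libraries, chosen after seeing the data, which left out miR-7a-2-3p. For MnCl2 against control, miR-7b was at 0.018 with total count as a covariate, miR-7a-1-3p at -0.109 with miRNAs alone, and miR-153-5p at -0.021 unfiltered and -0.227 with miRNAs alone. For MMT against MnCl2, miR-7a-1-3p was at 0.02 with miRNAs alone, and miR-153-5p at 0.018 unfiltered, 0.09 with miRNAs alone and 0.016 in the fit of the compared groups. From summed counts, the miR-7b share differed by -0.124 (MMT) and -0.312 (MnCl2) percentage points from control. Without the filter, 1 entry was called in MnCl2 against control (rno-miR-200a-3p), and the cause of these moves was not tested. Leaving out single libraries gave, for MMT against control, -0.17 to 0.207 (miR-7a-5p), -0.099 to 0.307 (miR-7b), -0.016 to 0.111 (miR-7a-1-3p), -0.18 to 0.433 (miR-7a-2-3p), -0.055 to 0.334 (miR-153-3p) and -0.105 to 0.164 (miR-153-5p). For MnCl2 against control it gave -0.309 to 0.043 (miR-7a-5p), -0.28 to 0.109 (miR-7b) and -0.151 to 0.166 (miR-153-5p). For MMT against MnCl2 it gave -0.058 to 0.37 (miR-7a-5p), -0.376 to 0.07 (miR-153-3p) and -0.171 to 0.157 (miR-153-5p). In percentage points, the share of miR-7a 3p arms moved over -0.0589 to 0.0999 and that of miR-7a-2-3p among them over -3.2 to 3.8 (MMT against control), and that of miR-7b over -0.24 to 0.916 (MMT against control), -0.11 to 0.75 (MnCl2 against control) and -0.43 to 0.469 (MMT against MnCl2). Same-numbered libraries did not consistently deviate together. Their correlations ran from -0.666 to 0.493, and those of libraries with different numbers from -0.771 to 0.753. With the replicate block 0 entries were called in each comparison, with miR-7a-2-3p at 0.871 in MnCl2 against control (edgeR adjusted p = 0.862).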

Other observations

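The miR-7 guides share a stretch of sequence with an oligodendrocyte miRNA. Bases 10 to 22 of miR-7a-5p, 13 in all, recur at the same positions of miR-338-3p, which accompanies myelin formation, as shown by the capitals.
miR-7a-5p: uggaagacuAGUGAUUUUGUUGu
miR-338-3p: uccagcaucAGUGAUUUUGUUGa
miR-3065-5p is complementary to miR-338-3p over 20 bases, and the pair had 35424 and 34931 counts in all libraries. Whether strand was used in the counting is not given. Against miR-7a-5p the complementary run of miR-3065-5p is 13 bases, and no other miRNA entry had a complementary run above 8 bases. miR-338-3p was at 3723 ± 308 CPM in MMT, 3793 ± 685 in MnCl2 and 3245 ± 811 in control libraries (SD, n = 3 each).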
